A study of Homo sapiens with 6 samples.

Results

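The 5 genes RNASE1, KLK5, LGALS3BP, IGFBP5 and the long non-coding RNA UCA1, were followed in F36P cells with and without added ERG. They are 5 of the 14821 genes of the count table and were chosen by their lower counts in the ERG than in the vector libraries, together with what their products are known for. Their ERG difference is therefore given as a description with its standard error (SE) and no test. All 5 were in the table and all 5 passed the filter on low counts, as did 14203 genes in all. F36P is an established human acute erythroid leukaemia line. The 3 ERG libraries came from cells transduced with the retroviral construct MSCV-PIG-AM-ERG and labelled as ERG overexpression. The 3 vector libraries came from cells with the MSCV-PIG backbone alone, whose genotype is labelled WT. Puromycin at 1 µg/ml was applied to both kinds of cells, and RNA was taken after 4 days of it. No uninfected cells were analysed here, and the promoter that drives the introduced gene and the number of transductions are not given in the sources used here. The labels call the replicates biological but name no separate cultures, so p-values reflect only how these samples vary. The purpose given for the experiment was to learn how ERG holds back erythroid differentiation.

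Apart from UCA1 the genes encode proteins that leave the cell. RNASE1 is a pancreatic-type ribonuclease, secreted by the pancreas and by endothelial cells, that cuts extracellular RNA and is blocked inside cells by the ribonuclease inhibitor RNH1. KLK5 is a trypsin-like serine protease of the kallikrein cluster, best known from the skin, where it activates KLK7 and takes part in the shedding of corneocytes. LGALS3BP is a heavily glycosylated scavenger receptor-type protein that binds galectins and extracellular matrix. IGFBP5 binds the insulin-like growth factors IGF1 and IGF2 and holds them in matrix or releases them to their receptor. UCA1 is a long non-coding RNA first described in bladder carcinoma. In bulk RNA, fewer cells that express a gene and less of its RNA per cell cannot be told apart.

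Sequences are shown for the regions before the gene starts, since ERG is a factor that binds DNA at sites with a GGAA core. They come from RefSeq (GRCh38.p14), from the 250 bases before a gene start, without the bases that lie in GENCODE exons. The RNASE1 line belongs to the inner of its 2 RefSeq starts. Capitals mark GGAA or its reverse complement TTCC.
RNASE1, chr14:20802407-20802614 (- strand): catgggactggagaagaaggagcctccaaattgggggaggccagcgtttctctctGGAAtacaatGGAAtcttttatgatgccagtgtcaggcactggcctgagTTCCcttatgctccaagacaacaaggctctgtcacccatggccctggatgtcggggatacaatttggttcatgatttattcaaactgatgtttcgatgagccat
KLK5, chr19:50953094-50953288 (- strand): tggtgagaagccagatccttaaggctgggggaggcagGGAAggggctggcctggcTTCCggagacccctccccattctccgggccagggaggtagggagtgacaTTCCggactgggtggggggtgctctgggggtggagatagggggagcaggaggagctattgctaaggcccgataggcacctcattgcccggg
LGALS3BP, chr17:78980110-78980173 (- strand): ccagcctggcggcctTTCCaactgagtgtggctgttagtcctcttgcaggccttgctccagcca
IGFBP5, chr2:216695550-216695799 (- strand): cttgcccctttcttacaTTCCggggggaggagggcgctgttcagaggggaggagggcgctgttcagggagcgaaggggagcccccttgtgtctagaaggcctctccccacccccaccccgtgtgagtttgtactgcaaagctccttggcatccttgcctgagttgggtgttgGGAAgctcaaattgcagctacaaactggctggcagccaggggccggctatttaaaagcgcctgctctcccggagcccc

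GGAA, searched on both strands of the full 250 bases, was found 4 times before the outer of the 2 RNASE1 starts and 3 times before the inner one. KLK5 and LGALS3BP had 4 matches each and IGFBP5 had 2, against a median of 3 over 35116 promoters, of which 92.7% had at least 1. The matches of KLK5 and LGALS3BP that are not among the printed bases lie in exons. The longer form CCGGAA, each copy of which also holds a GGAA, occurred 2 times before KLK5, once before LGALS3BP, once before IGFBP5 and before neither RNASE1 start. It was present in 14.5% of all promoters. GATAA, one of the forms that GATA factors bind, had no match in any of the 5 windows and matched in 20.4% of promoters. The form GATAG was not searched for, and it occurs in the printed KLK5 bases, so GATA sites are not excluded. CACCC, the letters bound by KLF factors, was found 4 times before KLK5, 3 times each before IGFBP5 and the outer RNASE1 start, once before the inner one and not before LGALS3BP, and at least once in 54.7% of promoters. These are matches of letters in one window and not measured binding. GGAA and CACCC were common in promoters at large, and CCGGAA and GATAA were less so.

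The library totals ranged from 10257141 to 14803031 counts. ERG itself, which checks the labels, stood between 97.4 and 104 CPM (read counts scaled to a common library size, after TMM correction for composition) in the ERG libraries and between 14.6 and 28.1 CPM in the vector libraries. The line showed its labelled type, as all 18 erythroid markers examined were present. Their summed level was 4890 to 8230 CPM in ERG and 12700 to 21000 CPM in vector libraries. ERG replicates 1 and 2 differed by 2.2 in chi-square per degree of freedom, more than sampling noise but far less than the 21.6 to 86.9 of other pairs, and counted as 2 replicates. Across genes vector replicate 1 lay closer to ERG replicates 1 and 2 (r = 0.967 and 0.966) than to vector replicates 2 and 3 (r = 0.957 and 0.954). ERG replicate 3 lay closest to vector replicate 3 (r = 0.974). This division, called sets A (ERG replicates 1 and 2, vector replicate 1) and B (the other 3), was read from the data and is no group of the study. Its part in the results was not tested beyond the values given within each set.

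The secreted ribonuclease RNASE1 (ENSG00000129538.13, chromosome 14, 20801228 to 20803278, minus strand) stood at 23.3, 27.2 and 28.7 CPM in ERG replicates 1, 2 and 3. In vector replicates 1, 2 and 3 it stood at 206, 101 and 126 CPM. The ERG libraries lay close together and far under the lowest vector library. In CPM, vector replicate 1 was about as far above the other vector libraries as they were above ERG. On the log2 scale, centred on the mean of the gene, it was nearer to them. It stood at 1.77, the other vector libraries at 0.75 and 1.06, and the ERG libraries from -1.36 to -1.07. The mean was 26.4 ± 2.77 against 144 ± 54.7 CPM (SD, n = 3 each), which left 18.3% of the vector level. On the log2 scale the difference was -2.45 (SE 0.27), or 5.46-fold. The smallest ratio between any pair of libraries was 3.54-fold and the largest 8.83-fold. Within set A the difference of log2 CPM was -3.02, and within set B it was -1.97.

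The kallikrein protease KLK5 (ENSG00000167754.12, chromosome 19, 50943303 to 50953093, minus strand) was read at 42.4, 38.5 and 32.5 CPM with ERG and at 245, 119 and 198 CPM with vector. The groups did not overlap, and vector replicate 1 was again the highest library and vector replicate 2 the lowest of its group. The means of 37.8 ± 5.01 and 187 ± 63.4 CPM (SD, n = 3 each) differed by -2.31 on the log2 scale (SE 0.27), and 20.2% of the vector level remained. Pairs of libraries differed by 2.82-fold to 7.54-fold. The set A and set B differences were -2.59 and -2.24.

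LGALS3BP, the galectin-binding glycoprotein (ENSG00000108679.12, chromosome 17, 78971238 to 78980109, minus strand), had levels of 19.3, 15.2 and 20.4 CPM with ERG and of 76.0, 58.7 and 92.5 CPM with vector, again without overlap. It was the gene with the least spread between vector libraries, with a highest to lowest ratio of 1.57. Its log2 difference was -2.05 (SE 0.21), from 75.7 ± 16.9 to 18.3 ± 2.75 CPM (SD, n = 3 each). The level with ERG was 24.2% of that with vector. Set A gave a log2 difference of -2.14 and set B of -1.84.

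IGFBP5, the binding protein of insulin-like growth factors (ENSG00000115461.4, chromosome 2, 216672105 to 216695525), was a gene of low level, with 33 to 65 counts per ERG library and 112 to 275 per vector library. Its levels were 5.08, 3.84 and 2.24 CPM with ERG and 13.3, 20.9 and 11 CPM with vector, without overlap. Here the ERG libraries were spread as widely as the vector libraries, with ratios of highest to lowest of 2.27 and 1.91. The log2 difference was -2.02 (SE 0.38), from 15.1 ± 5.22 to 3.72 ± 1.42 CPM (SD, n = 3 each), leaving 24.7%. The nearest pair of libraries, ERG replicate 1 and vector replicate 3, differed by 2.16-fold. The set B difference of -2.68 was larger than the set A difference of -1.56, the reverse of RNASE1.

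The long RNA UCA1 (ENSG00000214049.7, chromosome 19, 15828206 to 15836326) had 21, 25 and 27 counts in the ERG libraries and 119, 284 and 52 in the vector libraries. These are 1.64, 1.71 and 1.83 CPM against 10.5, 21.6 and 5.09 CPM. The ERG libraries were nearly equal, whereas the vector libraries spanned 4.25-fold. UCA1 had the largest log2 difference of the 5, -2.84 (SE 0.52), and 14% of the vector mean remained (1.73 ± 0.0964 against 12.4 ± 8.44 CPM, SD, n = 3 each). That size rested on vector replicate 2, without which the log2 difference was -2.16. The set A and set B differences were -2.54 and -2.43.

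**Figure D1:**
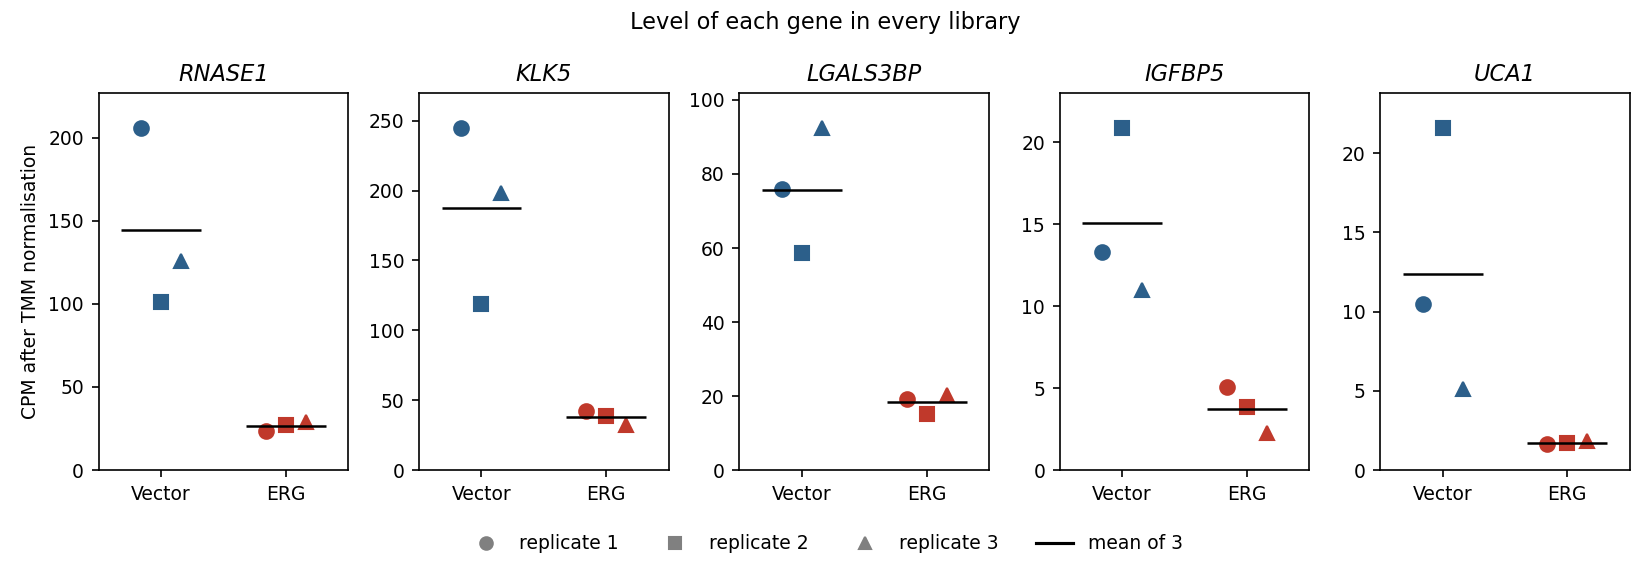
CPM after TMM normalisation (vertical axis, linear and from 0, its own range in each panel) of the 5 genes in 3 vector and 3 ERG libraries; each point is a library, its shape gives the replicate number and the line is the mean. In every panel all ERG points lie under all vector points, and the highest vector library is replicate 1 for RNASE1 and KLK5, replicate 3 for LGALS3BP and replicate 2 for IGFBP5 and UCA1.

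All 5 genes thus had every ERG library under every vector library, which the choice of the genes fixes in large part. Of all tested genes, 9.54% had that order of groups. A log2 fold change of -2 or less was found in 39 genes (0.275%), the 5 among them, at places 5 (UCA1), 19 (RNASE1), 23 (KLK5), 33 (LGALS3BP) and 37 (IGFBP5) from the lowest. Summed, the 5 genes made up 85.6 to 91.7 CPM in the ERG libraries and 322 to 550 CPM in the vector libraries. None was down to 0 in any library.

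Per kilobase of exon, which allows genes to be compared, the vector levels fell into 3 tiers. KLK5 (113 ± 38.3 CPM per kb) and RNASE1 (95.8 ± 36.3) stood at the 97.2 and 96.6 percentiles of 12772 genes with a known exon length. Their spreads overlapped, yet KLK5 was the higher within each vector library. The values were 148 against 137, 72.2 against 67.3 and 120 against 83.5 CPM per kb in vector replicates 1, 2 and 3. LGALS3BP followed at 21.1 ± 4.71 CPM per kb (percentile 80.6). UCA1 (2.99 ± 2.03) and IGFBP5 (2.34 ± 0.811) were the lowest and did not differ beyond their spread, at percentiles 31.4 and 26.6. With ERG the order was KLK5 at 22.9 ± 3.03, RNASE1 at 17.5 ± 1.84, LGALS3BP at 5.11 ± 0.766, IGFBP5 at 0.578 ± 0.221 and UCA1 at 0.417 ± 0.0232 CPM per kb (SD, n = 3 each). The length is the union of all annotated exons, which for UCA1 with 36 transcripts (4.15 kb) may be longer than the RNA present.

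The 5 genes differed in their spread among the vector libraries. The SD of log2 CPM over the 3 vector libraries was 1.03 for UCA1, above that of 96.2% of tested genes. It was 0.53 for KLK5, 0.52 for RNASE1, 0.47 for IGFBP5 and 0.33 for LGALS3BP, against a median of 0.29. Over the ERG libraries the order changed. UCA1 had 0.07 (percentile 12), RNASE1 0.15, KLK5 0.19 and LGALS3BP 0.22, under the median of 0.23, while IGFBP5 had 0.57, above 88.8% of genes. UCA1 thus had a larger SD than most genes without ERG and a smaller one than most with it. With ERG it had only 21 to 27 counts per library, where counting noise is large. Its small SD there is therefore not read as steady expression.

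The genes also fell into different patterns within the vector group. RNASE1 and KLK5 were highest in vector replicate 1, then 3, then 2, an order shared by 20% of tested genes. IGFBP5 and UCA1 were highest in vector replicate 2, then 1, then 3, an order held by 9.58% of tested genes. It was held by 14 of the 39 genes (35.9%) with a log2 fold change of -2 or less. Those 14 include IGFBP5 and UCA1, and the 39 were picked on the same difference as the members, so the larger share is only a description. LGALS3BP had the order 3, 1, 2 (8.85%). UCA1 was 2.06-fold higher in vector replicate 2 than in replicate 1, whereas RNASE1 in replicate 2 stood at 0.492 of its level in replicate 1. Apart from the ERG difference, for which they were chosen, the 5 genes did not all share the same order of vector libraries.

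Likeness was measured as the root mean square (RMS) difference of log2 CPM over the 6 libraries, after each gene was centred on its own mean. It is a description that holds the ERG difference within it, and ERG replicates 1 and 2 are nearly the same profile. Among 11562 genes the closest to RNASE1 was KLK5 and the closest to KLK5 was RNASE1 (RMS 0.25; the median gene was at 1.26 and 1.2). NYAP1, known as a phosphoprotein of neurons, was the second for both (0.31 and 0.26). LGALS3BP was the third for KLK5 (0.31). LGALS3BP itself was closest to ACHE (acetylcholinesterase, 0.25), the membrane skeleton adducin ADD2 (0.27) and the semaphorin receptor PLXNA1 (0.29).

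IGFBP5 was closest to CDH1, the epithelial and erythroid adhesion protein E-cadherin (RMS 0.25), the olfactory receptor gene OR10Z1 (0.26) and the amino acid transporter SLC6A19 (0.27). UCA1 was closest to the actin bundler ESPN (0.32), the mucin-type glycosyltransferase GALNT5 (0.32) and A4GALT, the glycosyltransferase of the P1PK blood group (0.37). Their levels were 9.70 against 63.6, 0.916 against 6.57 and 10 against 60.9 CPM in ERG and vector. ESPN stood at 61.7, 111 and 18.1 CPM in vector replicates 1, 2 and 3, the same order as UCA1. IGFBP5 and UCA1 were closer to each other (0.56) than to the other 3, with UCA1 at place 58 from IGFBP5 and IGFBP5 at place 18 from UCA1. RNASE1, KLK5 and LGALS3BP were within 0.25 to 0.38 of each other and 0.61 to 0.86 from IGFBP5 and UCA1.

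Relatives of each gene were tested in the edgeR fit over all genes (quasi-likelihood test, Benjamini-Hochberg adjustment), in which 0.732% of tested genes were called lower with ERG and 1.47% higher. Without the first or without the second ERG library edgeR called no gene at all (0 genes, with 1278 and 1256 at an unadjusted p under 0.05), so every call below is lost there. DESeq2 called 1006 genes with all libraries. With the set (A or B) added as a term, edgeR called 1022 of the 14203 tested genes higher and 847 lower. That set was read from these data, so p-values with the set as a term may be too low.

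The list of ribonucleases and their inhibitor held 3 other tested genes, of which 1 fell and 0 rose (median log2 -1.05, against -0.01 over all tested genes). The gene that fell, whose value is also the median, was the inhibitor, and neither tested ribonuclease passed. RNH1, the cytosolic inhibitor that binds pancreatic-type ribonucleases, stood at 139, 142 and 143 CPM with ERG and at 359, 274 and 248 CPM with vector, without overlap. It was 2.08-fold lower (log2 -1.05, SE 0.17, edgeR adjusted p = 0.0267). It did not pass without vector replicate 2 or 3 (adjusted p = 0.0932 and 0.0616). RNASE6, a myeloid antimicrobial ribonuclease, had a log2 difference of -1.63 that did not pass (adjusted p = 0.138; 1.49 ± 0.343 against 4.61 ± 2.40 CPM), though it did in DESeq2 (0.0269), in edgeR with the replicate block (0.0438) and with the set as a term (0.0115). The lysosomal RNASET2 was at 31.4 ± 4.53 against 39.2 ± 13.9 CPM (adjusted p = 0.586). The 11 other family members, among them RNASE4 and ANG, were not among the genes of the count table.

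Of 7 tested kallikreins and partners other than KLK5, 1 fell and 0 rose (median log2 -0.07). KLK6, the next gene of the cluster and a protease of brain and epithelia, stood at 37.3, 42.1 and 27.3 CPM with ERG and 207, 135 and 78.4 CPM with vector. The groups did not overlap and the difference was 3.94-fold (log2 -1.98, SE 0.35, edgeR adjusted p = 0.0378). It did not pass without ERG replicate 3 (0.0655) or vector replicate 2 (0.131). KLK7, the chymotrypsin-like skin protease, was near the detection limit with 32 counts in the ERG and 115 in the vector libraries (log2 -2.06, SE 0.64, adjusted p = 0.168, and 0.0427 with the set as a term). PRSS8, the membrane-anchored protease prostasin, had the lowest value of the list, 2.77 ± 1.07 against 18.7 ± 13.8 CPM (log2 -2.76, adjusted p = 0.0683, and 0.0135 with the set as a term). It is mentioned for that value and not by the rule. The tissue kallikrein KLK1 (2.38 ± 0.204 against 1.97 ± 0.81 CPM) and the protease inhibitor SPINT2 (678 ± 118 against 712 ± 325 CPM) had adjusted p of 0.747 and 0.93. The list thus held 3 genes with log2 values near -2 or under it and 3 with positive values.

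Among 10 tested galectins and genes of their glycan ligands, 1 fell and 1 rose (median log2 -0.20). Both encode enzymes that bear on the branching of N-glycans. MGAT5, whose product makes the branch that galectin-3 prefers, rose 1.78-fold (144 ± 8.14 against 81.0 ± 6.38 CPM, edgeR adjusted p = 0.0236). MGAT3, which adds the bisecting residue that blocks further branching, fell 1.82-fold (112 ± 19.8 against 203 ± 14.3 CPM, 0.0431). Neither passed without vector replicate 2 (0.111 and 0.16) or 3 (0.0713 and 0.13). None of the 5 tested galectin genes passed in this fit. LGALS3, the ligand from which LGALS3BP has its name, was at 1.54 ± 0.51 against 4.30 ± 2.74 CPM (log2 -1.49, adjusted p = 0.224). LGALS1 was at 81.6 ± 7.36 against 67.4 ± 17.7 CPM (0.551), and LGALS9 at 44.8 ± 9.79 against 71.7 ± 15.5 CPM (0.174, and 0.0197 as lower with the set as a term). These 3 galectins are mentioned outside the rule, with their values known.

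In the insulin-like growth factor axis, 0 of 9 tested genes other than IGFBP5 passed in edgeR (median log2 -0.07; 2 had an unadjusted p under 0.05), and 1 passed as lower in DESeq2. The receptor IGF1R was at 55.5 ± 3.95 against 40.2 ± 8.83 CPM (edgeR adjusted p = 0.276), and the clearance receptor IGF2R at 71.7 ± 7.06 against 82.9 ± 2.20 CPM (0.466). IGFBP4 was at 11.9 ± 0.771 against 22.7 ± 6.02 CPM (log2 -0.93, 0.0924) and passed as lower with the set as a term (0.0148). IGFBP2, which lies beside IGFBP5, was at 6.78 ± 1.99 against 9.03 ± 8.16 CPM (0.768). GRB10, an adaptor that restrains the receptor, and the RNA-binding protein IGF2BP2, the 2 most abundant of the list, had log2 differences of 0.26 and -0.15 (0.744 and 0.66). Neither ligand gene, IGF1 or IGF2, was among the genes of the count table. The receptors, IGFBP2 and IGFBP4 are likewise mentioned outside the rule.

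The list of secreted proteases and inhibitors of other families gave no fall in the edgeR fit without further terms. Of 28 tested, 2 rose and 0 fell (median log2 0.28). The protease inhibitor A2M rose, with 85 counts over the ERG and 4 over the vector libraries (log2 4.04, edgeR adjusted p = 0.0197), and the aggrecan protease ADAMTS4 rose 3.19-fold (adjusted p = 0.048). A2M did not pass without vector replicate 2 or 3 (0.0836 and 0.0811), nor ADAMTS4 without vector replicate 1, 2 or 3 (0.0637 to 0.141). With the set as a term the list moved both ways, 7 higher and 6 lower. This list was therefore not lower as a whole, and it does not stand for all genes of secreted proteins.

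The epithelial character of the 5 genes was set against 44 epithelial markers, of which 11 were tested. Of these 1 fell and 0 rose (median log2 -0.08). CDH1, which erythroid precursors also express, stood at 14, 14 and 10.3 CPM with ERG and 59.1, 88.0 and 46.1 CPM with vector (5.06-fold, log2 -2.34, SE 0.27, edgeR adjusted p = 0.0124). The mucin MUC1 was at 7.86 ± 2.09 against 29.5 ± 15.3 CPM (log2 -1.91, 0.0633, and 0.00974 with the set as a term), and EPCAM at 0.933 ± 0.335 against 1.93 ± 0.482 CPM (0.289), both mentioned outside the rule. KRT18 was at 1.55 ± 0.383 against 1.11 ± 0.287 CPM. Of the markers, 30 were not among the genes of the count table, with KRT5, KRT14, KRT19, GRHL2 and TP63 among them. The summed level of the tested markers was 290 to 378 CPM in the ERG and 268 to 362 CPM in the vector libraries, ranges that overlap. Most of that sum was the junction protein JUP (plakoglobin), at 247 ± 33.8 against 159 ± 22.7 CPM, higher with ERG without overlap (log2 0.64, edgeR adjusted p = 0.115, and 0.0133 with the set as a term). JUP is likewise mentioned outside the rule. In 4 of the 11 tested markers every ERG library lay under every vector library, and in 1 the reverse held. Of all tested genes 9.54% had the former order and 21.9% had either. LAMB3, among the 4, was at 6.23 ± 0.947 against 12.1 ± 3.64 CPM (log2 -0.95, edgeR adjusted p = 0.137, and 0.0236 with the set as a term). It is also mentioned outside the rule. The description as epithelial-type thus held for single genes, while the list as a whole had a median near 0.

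Markers of endothelial and stromal cells, which are known to make some of these proteins, were examined next. RNASE1 is known from endothelium, and of 7 tested endothelial markers 2 rose and 0 fell (median log2 0.86). These were PECAM1 (1.95 on the log2 scale, edgeR adjusted p = 0.0153) and TEK (0.97, 0.0496). PECAM1 did not pass without vector replicate 2 or 3 (0.082 and 0.0667), nor TEK without any of the vector replicates (0.0641 to 0.191) or with DESeq2 size factors (0.0551). ENG, a coreceptor of TGF-beta family ligands, was at 173 ± 19.1 against 255 ± 48.6 CPM and PLVAP, a protein of endothelial fenestrae, at 90.1 ± 6.50 against 143 ± 27.2 CPM, both without overlap of the groups (edgeR adjusted p = 0.181 and 0.103). Of the 7 tested endothelial markers, 4 had every ERG library above every vector library and these 2 had every one under. Of all tested genes 21.9% had either order and 9.54% the latter. ENG and PLVAP passed as lower with the set as a term (0.00311 and 0.0121), and TIE1, ESAM and EGFL7 as higher (3.12e-04, 0.00601 and 0.0253). The list then had 5 higher and 2 lower, and with the replicate block it had 3 higher and 1 lower. IGFBP5 is known from fibroblasts, and of 7 tested stromal markers 1 rose and 0 fell (median log2 -0.05). That was POSTN, with 168 counts in the ERG and 14 in the vector libraries (adjusted p = 0.0212, and 0.0593 and 0.0682 without vector replicate 2 or 3). With the set as a term TAGLN, a smooth muscle actin-binding protein at 1.24 ± 0.133 against 3.04 ± 0.59 CPM, passed as lower (0.0369, against 0.0977). ENG, PLVAP, TIE1, ESAM, EGFL7 and TAGLN are mentioned outside the rule. The defining stromal markers COL1A2, PDGFRA, PDGFRB and DCN were not among the genes of the count table, and COL1A1 was at 2.26 ± 0.196 against 5.45 ± 2.84 CPM. Of 18 erythroid markers 5 fell and 0 rose (median log2 -1.16), among them HBG2 (-2.17, adjusted p = 0.0318) and HBG1 (-2.0, 0.0418), whose reads cannot be well separated, and EPOR (-1.30, 0.01). None of these 3 passed without vector replicate 2 (0.0538 to 0.149), and of them only EPOR passed without vector replicate 3 (0.0393). The other 13 erythroid markers did not pass, and no erythroid marker (0) passed without vector replicate 2. All 18 had negative log2 values. In 13 of the 18 every ERG library lay under every vector library, against 9.54% of all tested genes. With the set as a term 17 were called lower, in a fit that called 847 genes lower in all. Whether the erythroid markers bear on the levels of the 5 genes was not tested.

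**Figure D2:**
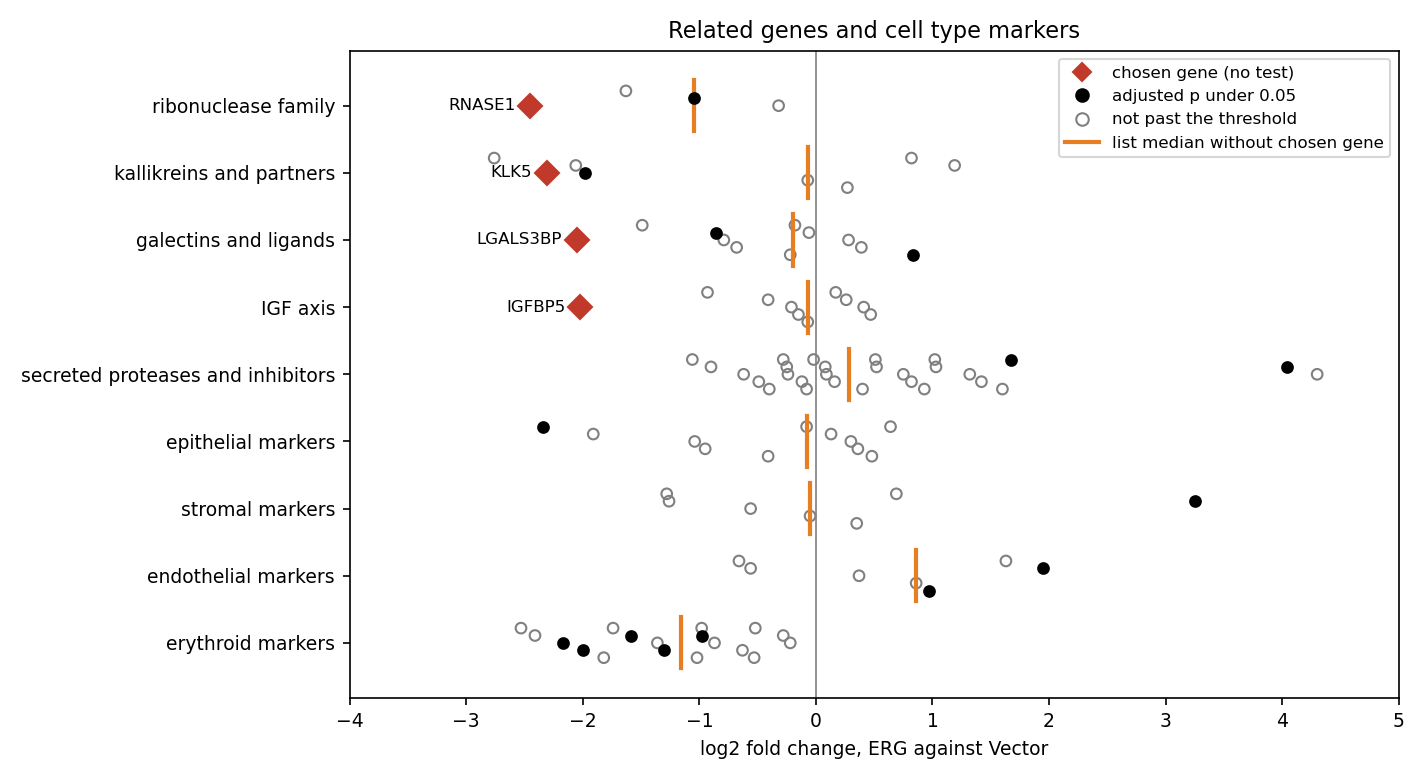
Log2 fold change of ERG against vector (horizontal axis) for each tested gene of 9 lists (rows); diamonds are the chosen genes, filled circles passed an edgeR adjusted p of 0.05, open circles did not, and orange bars are list medians without the chosen gene. The 4 diamonds lie between -2.45 and -2.02, while the medians of their lists other than the ribonucleases lie between -0.20 and -0.07 and that of the erythroid markers at -1.16.

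Position was examined next, since KLK5 and RNASE1 lie in clusters of related genes. Of 22 tested genes within 250 kb of a member, 1 rose and 1 fell (median log2 -0.11). The fall was KLK6, 5.54 kb from KLK5, and KLK7 lay 23.4 kb away. KLK1 (0.27) at 120 kb had a log2 value of the other sign, and CTU1 (-0.51), C19orf48 (-0.19), SNORD88B (-0.18), CLEC11A (-0.43), SIGLEC9 (0.70) and SIGLEC17P (1.56) in the KLK5 window did not pass (edgeR adjusted p from 0.218 to 0.829). Near RNASE1, NDRG2 at 213 kb rose 3.08-fold, from 4.42 to 13.7 CPM (edgeR adjusted p = 0.0306). It did not pass without ERG replicate 3 (0.0517) or vector replicate 2 or 3 (0.0859 and 0.0981). RNASE6 lay 18.8 kb away with the value above, and METTL17 (-0.03) at 186 kb did not pass.

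The other 3 genes had no neighbour that passed. The genes beside LGALS3BP were CANT1 (-0.11), ENGASE (0.26), USP36 (-0.31) and CYTH1 (-0.11), all within 0.31 of 0 on the log2 scale. IGFBP5 was flanked by IGFBP2 (-0.41) at 7.67 kb, RPL37A (-0.06) and SMARCAL1 (-0.11). Around UCA1 the cytochrome gene CYP4F2 (1.18, edgeR adjusted p = 0.418) at 41.7 kb and the tropomyosin TPM4 (0.98, 0.0791) had positive values and the pseudogene RPL23AP2 (-0.05) did not. TPM4 passed as higher in DESeq2 (0.00268), without ERG replicate 3 (0.045) or vector replicate 1 (0.0389), with the block (0.00874) and with the set as a term (6.3e-04). KLK6 was thus the only neighbour called lower in the edgeR fit without further terms. RNASE6 was also called lower under the alternatives given above. KLK7 was called lower in DESeq2 (adjusted p = 0.0414) and in edgeR with the set as a term (0.0427). CTU1 was called lower in edgeR with the set as a term (0.0371). Differences between the loci were not tested.

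**Figure D3:**
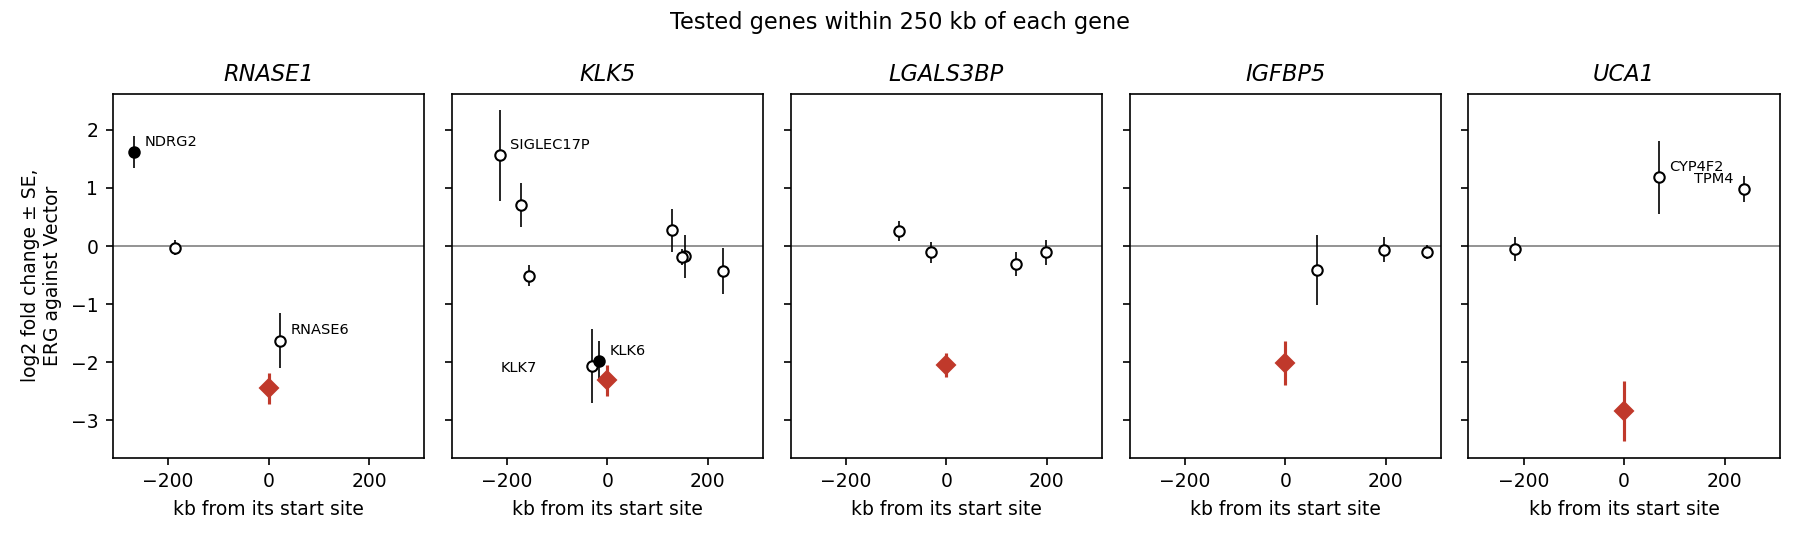
Log2 fold change ± SE of ERG against vector (vertical axis) for each tested gene within 250 kb of a member, by the distance between their start sites in kb (horizontal axis, negative upstream of the member); diamonds are the members, filled circles passed an edgeR adjusted p of 0.05 and open circles did not. KLK6 and KLK7 lie beside KLK5 at -1.98 and -2.06, NDRG2 rose at 1.62 far from RNASE1, and the genes around LGALS3BP and IGFBP5 lie near 0.

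**Figure D4:**
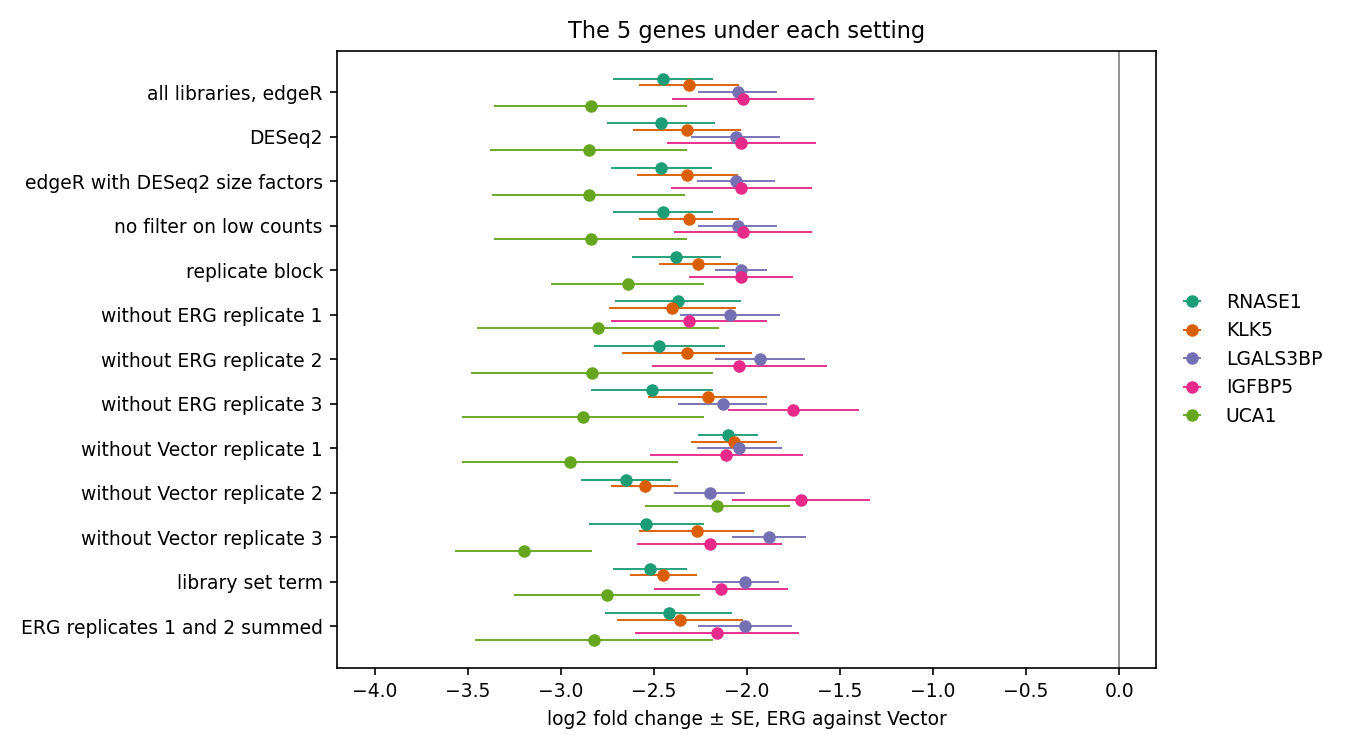
Log2 fold change ± SE (horizontal axis) of the 5 genes under the edgeR fit of all libraries and 12 alternative settings (rows). Every point is negative; UCA1 moves most, from -3.20 without vector replicate 3 to -2.16 without vector replicate 2, and LGALS3BP least, from -2.20 to -1.88.

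The plot of settings shows how far each size depends on single libraries. Leaving out a library moved RNASE1 between -2.65 and -2.10, KLK5 between -2.55 and -2.07, LGALS3BP between -2.20 and -1.88, IGFBP5 between -2.31 and -1.71 and UCA1 between -3.20 and -2.16 on the log2 scale. RNASE1 and KLK5 were nearest to 0 without vector replicate 1, their highest library, and IGFBP5 and UCA1 without vector replicate 2, which was theirs.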

How the data were processed

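RNA was measured in 6 libraries, 3 ERG and 3 vector. Libraries were made from poly-A selected RNA with random hexamer priming, per the labels' protocols. The authors deposited whole-number read counts per gene, not normalised, in a table whose name speaks of CPM. The submitters' processing notes name edgeR 3.32.1 and the hg38 build. Aligner, counter, annotation and use of strand are not given in the sources used here, so reads of overlapping or antisense genes cannot be told apart. The second-highest CPM of every gene was at least 1.01, so low genes had been removed before deposit. Control columns headed NC were read as the vector samples, the only group besides ERG. There were 0 unused sample columns.

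The counts were fitted with edgeR 4.0.16 (R 4.3.3, TMM, two-sided quasi-likelihood test, no covariate, all 6 libraries, adjusted p threshold 0.05) over the 14203 genes that reached 1 CPM in 3 or more libraries. SE is the log2 fold change divided by the square root of F. Differences within a set use log2 CPM with a prior count of 2. On counts simulated for this comparison (14203 genes), 92% of 100 genes changed by 2 on the log2 scale and 29% of 100 changed by 1 were called, with 9 false calls. The simulated libraries were drawn independently, without the sets and without the likeness of ERG replicates 1 and 2. Genes of low mean level were not among those changed. These rates therefore need not hold for the measured libraries. Totals of 10257141 to 14803031 counts limit the precision of UCA1, IGFBP5 and KLK7. Coordinates and exon lengths come from GENCODE release 29 on GRCh38, which matched 12772 tested genes, and promoters from RefSeq (GRCh38.p14).

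The members and lists were chosen with earlier results of these data known. Genes named are the 5 members, and from each list up to 4 that passed with the largest change or, where none passed, the 2 with the highest mean CPM. All tested neighbours within 250 kb, the 3 genes most alike to each member (2640 unnamed, antisense, pseudogene or unmatched genes left out) and ERG are also named. Members are left out of list counts. Some genes that the rule names and 1 sequence are not reported here. Alternatives were DESeq2 1.42.0, DESeq2 size factors, no filter, the replicate number as a block and each library left out; the set term and ERG replicates 1 and 2 summed were added after seeing the data.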

Additional observations from a re-analysis of the deposited data

How the results depend on the processing

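All 5 member differences stayed negative and moved by less than 1 SD between replicates under the 12 alternatives; the ranges without each library stand in the report (RNASE1 -2.65 to -2.10, KLK5 -2.55 to -2.07, LGALS3BP -2.20 to -1.88, IGFBP5 -2.31 to -1.71, UCA1 -3.20 to -2.16). Counts of calls depended far more on the setting. Over all genes edgeR called 313 (209 higher, 104 lower), DESeq2 1006 (596 and 410) and edgeR with the set term 1869 (1022 and 847), with 0 when ERG replicates 1 and 2 were summed (1277 at an unadjusted p under 0.05). Leaving out a library gave 0 to 441 calls: 0 without ERG replicate 1 or 2, 19 without vector replicate 2 and 51 without vector replicate 3. With DESeq2 the calls were 2 ribonuclease, 3 kallikrein, 1 IGF axis, 7 secreted protease, 4 epithelial, 2 stromal, 4 endothelial and 13 erythroid genes, and 5 neighbours. With the set term they were 2, 3, 1, 13, 4, 2, 7, 17 and 6 in the same order, and 3 galectin genes or enzymes (1 higher, 2 lower). The set was read from these data, so its p-values may be too low. With ERG replicates 1 and 2 summed all these lists, the galectins and the neighbours had 0 calls, and with DESeq2 size factors the endothelial list had 1. Without 1 library the lists had 0 to 1 (ribonuclease, kallikrein, epithelial, stromal), 0 to 2 (galectin, endothelial), 0 to 0 (IGF axis), 0 to 4 (secreted protease) and 0 to 8 (erythroid) calls, and the neighbours 0 to 3. The filter changed no count by over 1.5 times.

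With the replicate block edgeR called 905 genes (582 higher, 323 lower), with 2 ribonuclease, 2 kallikrein, 1 IGF axis, 6 secreted protease, 3 epithelial, 4 endothelial and 12 erythroid genes and 4 neighbours. The deviations of same-numbered libraries correlated at 0.628, -0.285 and 0.589 for replicates 1, 2 and 3, so the numbers did not pair the samples throughout, and ERG replicate 2 correlated best with vector replicate 1 (0.588). The member differences with the block were -2.38 (RNASE1), -2.26 (KLK5), -2.03 (LGALS3BP), -2.03 (IGFBP5) and -2.64 (UCA1). Among 47 other named genes, 95 of the single-gene values under an alternative lost and 29 gained the threshold, and none that passed changed sign.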
